A study of Mus musculus with 3 samples.

Results

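The ADAMTS genes encode secreted zinc proteases of the extracellular matrix, and 10 of them were followed here through the healing callus: *Adamts1*, *Adamts2*, *Adamts3*, *Adamts4*, *Adamts5*, *Adamts6*, *Adamts9*, *Adamts12*, *Adamts14*, and *Adamts15*. They were chosen as a gene list, matched by symbol to the deposited gene table, and are 10 of the 32285 genes in it and 10 of its 19 genes named *Adamts*. The question put to the data was which callus cells carry the members that trim procollagen and which carry the members that cut aggrecan, and how this differs between days. The cells came from the callus of fractured femurs of C57BL/6 mice without further treatment, at day 7, day 10, and day 14. All 3 samples were live cells sorted as CD45-, CD31-, and TER119-, so blood and endothelial cells were meant to be absent from every group. The ages and the number of animals pooled for each library are not given in the sources used here. Each day is 1 droplet library with no replicate, so the variation between animals is unknown, a day and its library cannot be told apart, and no p-values were computed.

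ADAMTS proteases are made as inactive precursors, cut by proprotein convertases, and held close to the cell or matrix by their C-terminal domains. *Adamts2*, *Adamts3*, and *Adamts14* encode the procollagen N-proteinases, which remove the N-terminal propeptide of fibrillar procollagens so that fibrils can form. *Adamts4* and *Adamts5* encode the main aggrecanases of cartilage, and *Adamts1*, *Adamts9*, and *Adamts15* encode proteases that also cut aggrecan or its relative versican. *Adamts6* is tied to fibrillin microfibrils and *Adamts12* to cleavage of cartilage oligomeric matrix protein, and these 2 were put in neither sum. In endochondral repair, cartilage rich in aggrecan and type II collagen is laid down first and then replaced by bone rich in type I collagen.

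The 10 genes share a catalytic site in which 3 histidines hold the zinc ion. Its coding sequence is shown because the procollagen members are closest to one another in it and *Adamts5* stands apart from the other aggrecan members. Each line gives the 36 coding bases of the site from the GENCODE M21 transcripts (GRCm38), 5′ to 3′ on the coding strand, with the eighth codon in capitals. The procollagen members come first, then the aggrecan members, then the other 2.
Adamts2: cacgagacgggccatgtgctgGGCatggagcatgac
Adamts3: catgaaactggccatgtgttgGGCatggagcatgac
Adamts14: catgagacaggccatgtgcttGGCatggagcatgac
Adamts1: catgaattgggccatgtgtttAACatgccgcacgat
Adamts4: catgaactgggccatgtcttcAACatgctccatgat
Adamts9: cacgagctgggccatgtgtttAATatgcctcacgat
Adamts15: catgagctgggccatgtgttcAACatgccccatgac
Adamts5: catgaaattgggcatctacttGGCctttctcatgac
Adamts6: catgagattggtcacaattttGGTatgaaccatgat
Adamts12: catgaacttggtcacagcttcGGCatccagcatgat

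The eighth codon was AAC or AAT in *Adamts1*, *Adamts4*, *Adamts9*, and *Adamts15*, and GGC or GGT in the other 6 genes. The 3 procollagen members shared 32 to 33 of the 36 bases pair by pair. The 5 aggrecan members shared 20 to 32 (median 29.0), and the low end was *Adamts5*, which shared 20 to 22 with the other 4. Pairs of a procollagen and an aggrecan member shared 22 to 26. In all 10 genes the site is split by an intron.

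In GRCm38, *Adamts1* lies at chr16:85793827-85803113 and *Adamts5* at chr16:85856173-85901828, both on the minus strand, with a gap of 53059 bases and 1 annotated gene between them. The other positions are chr11:50602084-50807573 (*Adamts2*, plus strand), chr5:89677087-89883334 (*Adamts3*, minus), chr1:171250421-171260637 (*Adamts4*, plus), chr13:104287835-104496695 (*Adamts6*, plus), chr6:92772699-92943492 (*Adamts9*, minus), chr15:11064790-11349231 (*Adamts12*, plus), chr10:61197112-61273438 (*Adamts14*, minus), and chr9:30899155-30922452 (*Adamts15*, minus). No member overlaps another gene on its own strand.

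The deposited values are unique molecular identifier (UMI) counts, each UMI standing for 1 captured mRNA molecule. Cells with 500 to 5000 genes, at most 10% mitochondrial UMIs, and at most 5% hemoglobin UMIs were kept, which left 7017 (day 7), 6593 (day 10), and 9853 (day 14). Their median depths were 5056, 17370, and 15802 UMIs. The day 7 library stood apart: only 6.37% of its cells had no UMI of *Ptprc*, which encodes CD45, against 99.9% at day 10 and 98.2% at day 14. The libraries shared 29 to 42 cell barcodes pair by pair. Cells without *Ptprc* were grouped by the marker in which they were high, which left 1145, 2779, 369, 128, and 71 cells at day 10 high for *Aspn*, *Cnmd*, *Col10a1*, *Ifitm5*, and *Rgs5*, in that order. At day 14 these groups held 2787, 1736, 933, 381, and 185 cells. A cell was high with at least 3 UMIs of the marker and at least 20% of the level at the marker's 99th percentile. Cells high for several markers (216 at day 10, 193 at day 14) or for none (1879 and 3465) were kept apart. At day 7 only the Cnmd-high group reached 50 cells (58 cells), so day 7 was compared there alone.

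The other markers of each group stood highest in that group at both days: *Ogn*, *Ptn*, *Postn*, and *Thbs2* in Aspn-high cells, which are stromal or osteoprogenitor markers; *Ucma*, *Col2a1*, *Acan*, and *Sox9* in Cnmd-high cells, which mark chondrocytes. *Ihh*, *Mmp13*, and *Spp1*, genes of hypertrophic cartilage, stood highest in Col10a1-high cells. *Bglap*, *Ibsp*, *Dmp1*, and *Sp7*, genes of osteoblasts, stood highest in Ifitm5-high cells, and *Mcam*, *Notch3*, and *Kcnj8*, genes of pericytes, in Rgs5-high cells. Markers of blood, endothelial, and muscle cells were low in these groups at day 10 and day 14. Cycling markers (*Mki67*, *Top2a*, and *Ccnb2*) summed to 211 and 189 CPM in Rgs5-high cells and to 3.63 to 57.4 CPM in the other groups. Whether cycling bears on the levels of the members was not tested. Neutrophil markers summed to 0.437 to 49.2 CPM (counts scaled to the same total in every group) at day 10 and to 24.8 to 232 CPM at day 14, highest in Aspn-high cells at day 14, and their part in the results below was not tested. Endothelial markers summed to 57.7 and 41.4 CPM in Rgs5-high cells, with 2 of 4 markers at 0, and to at most 4.51 CPM in the other groups. *Emcn* gave 54.5 and 33.6 CPM of the sums in Rgs5-high cells.

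A level is the CPM of a gene after adding up all cells of 1 group and day, and the bracketed ranges are exact Poisson 95% intervals, which cover counting error only. In such sums, fewer RNA molecules per cell and fewer cells with the RNA cannot be told apart, so the share of cells with a UMI is also given where it adds something. Cells with a *Ptprc* UMI and no high marker served as a reference, since blood cells should largely lack the members. At day 14 they numbered 139, and the members stood there between 0 CPM (*Adamts15*) and 14.7 CPM (*Adamts12*). The reference rests on few UMIs, 0 to 22 for each member, and some sat together in a cell: 7 of the 11 *Adamts9* UMIs and 6 of the 13 *Adamts1* UMIs were in 1 cell each. Whether they were free RNA was not tested. The same 139 cells also held RNA of skeletal genes, with *Spp1* at 9224 CPM, *Ibsp* at 3966 CPM, and *Col2a1* at 2812 CPM. A level at or near the reference can therefore not be read as the background of blood cells. At day 7, 6553 cells of this kind had 130, 445, and 260 CPM of these genes. The members stood there between 0.02 CPM (*Adamts15*) and 1.64 CPM (*Adamts5*). At day 10 these cells numbered 4, so the day 10 levels have no reference of their own, and a level at or below the day 14 reference is only said to be so. Levels of single genes are not ranked against each other, because the 3′ counts of 2 genes need not be on the same scale. The ratios and shares of UMIs below join different genes. They compare groups and days, and their sign or size alone does not give the balance of the RNAs.

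Among the 5 groups, *Adamts2*, the main procollagen I N-proteinase, stood highest in Rgs5-high, Aspn-high, and Ifitm5-high cells and was low in both cartilage groups. In Rgs5-high cells it stood at 490 CPM (446 to 537) at day 10 and 420 CPM (391 to 450) at day 14. Aspn-high cells had 97.7 CPM (93.1 to 102) and 101 CPM (97.9 to 104). Ifitm5-high cells had 80.0 CPM (68.8 to 92.4) and 73.0 CPM (66.2 to 80.3). The order of the groups was therefore the same at both days, and the intervals of the first 2 did not overlap. Cnmd-high cells stood far below, with 9.97 CPM (9.14 to 10.8) and 9.50 CPM (8.52 to 10.6), and Col10a1-high cells had 1.93 CPM (0.998 to 3.37) and 3.63 CPM (2.76 to 4.68). At day 14 the Cnmd-high level was close to the reference of 9.37 CPM (5.12 to 15.7) and the Col10a1-high level was below it.

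The Rgs5-high level of *Adamts2* was 5.01-fold that of the Aspn-high cells at day 10 (4.51 to 5.56) and 4.15-fold at day 14 (3.85 to 4.48). Aspn-high cells in turn had 9.80-fold the Cnmd-high level at day 10 (8.89 to 10.8) and 10.6-fold at day 14 (9.52 to 11.9). With every cell thinned to 2000 UMIs, 56.5% of Rgs5-high cells had an *Adamts2* UMI at day 10 and 53.3% at day 14 (unthinned 94.4% and 93.0%). The thinned shares were 17.7% and 17.8% in Aspn-high cells, 14.2% and 12.7% in Ifitm5-high cells, and 1.88% and 2.03% in Cnmd-high cells. In the reference cells of day 14 the thinned share was 1.48%, at a median depth of 7417 UMIs against 9076 UMIs in Rgs5-high cells. The high sum in Rgs5-high cells was thus spread over most of the cells, and the 10% of cells with the most UMIs of *Adamts2* held 28.6% and 26.7% of them.

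*Adamts3*, whose product acts on procollagen II and also on the lymphatic growth factor VEGF-C, had another order. It was highest in Cnmd-high cells, at 16.0 CPM (14.9 to 17.1) at day 10 and 14.4 CPM (13.2 to 15.7) at day 14. Aspn-high cells had 7.61 CPM at both days, Col10a1-high cells 7.08 and 7.14 CPM, and Ifitm5-high cells 9.18 and 5.16 CPM. Rgs5-high cells had 1 UMI at day 10 and 3 UMIs at day 14, which is 1.07 and 1.55 CPM against a reference of 2.68 CPM. The Cnmd-high group thus stood above all others, while the other cartilage group, Col10a1-high, did not. The Rgs5-high group, highest for *Adamts2*, had 3 or fewer *Adamts3* UMIs at each day. The Cnmd-high level was 2.10-fold the Aspn-high level at day 10 (1.75 to 2.55) and 1.89-fold at day 14 (1.64 to 2.19). Aspn-high, Col10a1-high, and Ifitm5-high cells did not differ from each other beyond counting error at day 10. At day 7, the 58 Cnmd-high cells had 21.6 CPM (14.1 to 31.7).

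*Adamts14*, the remaining N-proteinase, was low everywhere, and its order differed between the days. Its day 10 levels were 10.1 CPM (8.68 to 11.8) in Aspn-high, 5.98 CPM (5.34 to 6.67) in Cnmd-high, 2.90 CPM (1.72 to 4.58) in Col10a1-high, 12.2 CPM (8.13 to 17.7) in Ifitm5-high, and 12.8 CPM (6.63 to 22.4) in Rgs5-high cells. Both cartilage groups were thus below the other 3 at day 10. Over the Cnmd-high level, Aspn-high cells had 1.69-fold (1.40 to 2.05), Ifitm5-high cells 2.05-fold (1.34 to 3.02), and Rgs5-high cells 2.15-fold (1.10 to 3.80). Cnmd-high cells had 2.06-fold the Col10a1-high level (1.28 to 3.53). At day 14 they were 6.72, 6.29, 1.85, 5.85, and 7.24 CPM in the same order, against a reference of 4.69 CPM. Only the Col10a1-high cells stood apart at day 14, below the other 4 groups, whose intervals overlapped.

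**Figure D1:**
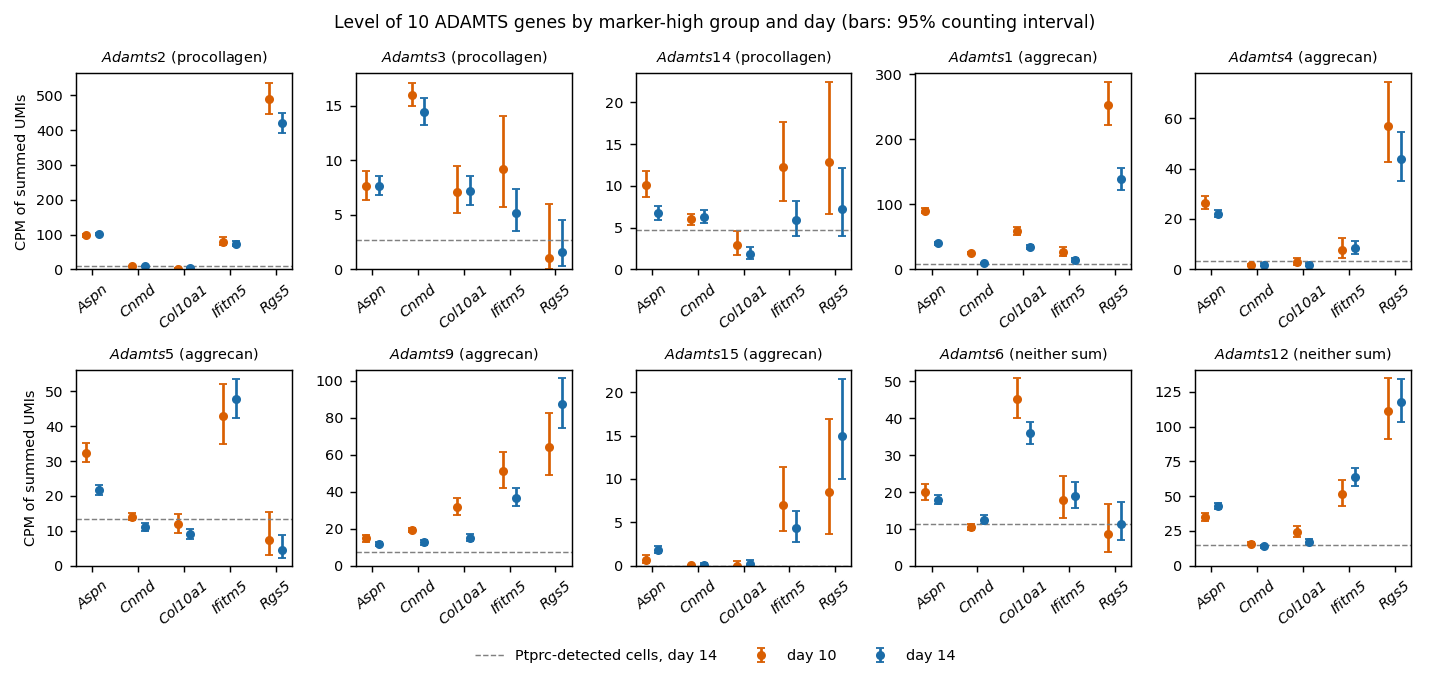
CPM of summed UMIs (vertical axis, linear from 0) of the 10 members in cells high for *Aspn*, *Cnmd*, *Col10a1*, *Ifitm5*, or *Rgs5* (horizontal axis) at day 10 (orange) and day 14 (blue), with 95% counting intervals as bars and the level in Ptprc-detected cells of day 14 as a dashed line. *Adamts2* stands at 490 and 420 CPM in Rgs5-high cells and near the dashed line in both cartilage groups, while *Adamts3* is highest in Cnmd-high cells at 16.0 and 14.4 CPM and *Adamts6* in Col10a1-high cells at 45.2 and 35.9 CPM.

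*Adamts1*, an aggrecan- and versican-cutting protease whose gene is quickly induced in many tissues, was also highest in Rgs5-high cells. It stood there at 253 CPM (222 to 288) at day 10 and 139 CPM (122 to 156) at day 14. Aspn-high cells had 90.5 CPM (86.1 to 95.2) and 40.0 CPM (38.1 to 42.1), and Col10a1-high cells 59.6 CPM (53.7 to 66.0) and 34.2 CPM (31.4 to 37.1). Ifitm5-high cells had 26.7 CPM (20.4 to 34.2) and 14.6 CPM (11.7 to 18.1). In Cnmd-high cells, 25.5 CPM (24.2 to 26.9) and 9.06 CPM (8.10 to 10.1) were found, and the day 14 value was at the reference of 8.70 CPM. The 5 groups kept the same order at both days, and only Ifitm5-high and Cnmd-high cells at day 10 did not differ beyond counting error. Within cartilage, Col10a1-high cells had 2.33-fold the Cnmd-high level at day 10 (2.08 to 2.62) and 3.77-fold at day 14 (3.28 to 4.34). *Adamts1* UMIs were concentrated in fewer cells than those of *Adamts2*: in Rgs5-high cells the top 10% of cells held 54.4% and 45.5% of them.

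*Adamts4*, which encodes aggrecanase-1, followed the same order at its top as *Adamts1*, but was low in both cartilage groups. Rgs5-high cells had 56.7 CPM (42.5 to 74.1) at day 10 and 43.9 CPM (35.1 to 54.3) at day 14, and Aspn-high cells 26.4 CPM (23.98 to 28.9) and 22.1 CPM (20.6 to 23.6). Ifitm5-high cells had 7.87 and 8.44 CPM. Cnmd-high cells had 1.73 and 1.91 CPM and Col10a1-high cells 2.90 and 1.85 CPM, and the day 14 reference was 3.35 CPM (1.09 to 7.81), from 5 UMIs. The Aspn-high level was 15.2-fold the Cnmd-high level at day 10 (12.1 to 19.2) and 11.6-fold at day 14 (9.04 to 14.99).

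*Adamts5*, which encodes aggrecanase-2, stood highest in Ifitm5-high cells, with 42.8 CPM (34.8 to 52.2) at day 10 and 47.7 CPM (42.2 to 53.6) at day 14. Aspn-high cells followed with 32.4 CPM (29.7 to 35.2) and 21.8 CPM (20.4 to 23.3). Cnmd-high cells had 14.0 and 11.1 CPM, Col10a1-high cells 11.9 and 9.05 CPM, and Rgs5-high cells 7.49 and 4.65 CPM, while the day 14 reference was 13.4 CPM (8.18 to 20.7). At day 14 the 3 lower groups were below this value. Rgs5-high cells, with the lowest value of *Adamts5*, were highest for its neighbor *Adamts1*. Their *Adamts5* level did not differ beyond counting error from that of Col10a1-high cells at either day. The Col10a1-high level was 1.59-fold theirs at day 10 (0.735 to 4.10) and 1.94-fold at day 14 (0.997 to 4.34). At day 10 the Cnmd-high level did not differ from theirs either (1.87-fold, 0.904 to 4.67). Cells high for none of the 5 markers had 44.9 CPM (42.6 to 47.4) and 35.0 CPM (33.4 to 36.7), so much of the *Adamts5* signal lay outside the groups. This was not particular to *Adamts5*, and the UMIs of both kinds in these cells are given with the sums below.

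*Adamts9*, whose product cuts versican and aggrecan, was highest in Rgs5-high cells, at 64.2 CPM (49.0 to 82.6) at day 10 and 87.4 CPM (74.7 to 102) at day 14. Ifitm5-high cells had 51.1 CPM (42.3 to 61.3) and 36.8 CPM (32.1 to 42.1), and the 2 groups did not differ beyond counting error at day 10. Col10a1-high cells had 31.9 and 15.2 CPM, Cnmd-high cells 19.5 and 12.6 CPM, and Aspn-high cells 14.8 and 11.7 CPM. *Adamts9* was thus the only aggrecan-cleaving member that was lower in Aspn-high than in Cnmd-high cells at day 10, and at day 14 these 2 groups did not differ beyond counting error. *Adamts15* was highest in 2 groups, with 6.99 CPM (3.997 to 11.4) and 4.30 CPM (2.79 to 6.35) in Ifitm5-high cells and 8.56 CPM (3.69 to 16.9) and 14.99 CPM (10.04 to 21.5) in Rgs5-high cells. It had 12 and 72 UMIs in Aspn-high cells (0.703 and 1.82 CPM) and 0 to 5 UMIs in each cartilage group. The 0 UMIs in Col10a1-high cells at day 10 have an interval that reaches up to 0.594 CPM.

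*Adamts6*, a gene tied to fibrillin microfibrils, was highest in Col10a1-high cells. Col10a1-high cells had 45.2 CPM (40.1 to 50.9) at day 10 and 35.9 CPM (33.1 to 39.0) at day 14. Aspn-high cells had 19.97 and 17.9 CPM, Ifitm5-high cells 17.9 and 18.9 CPM, Cnmd-high cells 10.4 and 12.5 CPM, and Rgs5-high cells 8.56 and 11.4 CPM. At day 14 the last 2 groups were near the reference of 11.4 CPM. The Col10a1-high level was 4.34-fold the Cnmd-high level at day 10 (3.74 to 5.01) and 2.87-fold at day 14 (2.53 to 3.25). With cells thinned to 2000 UMIs, 9.14% of Col10a1-high cells had an *Adamts6* UMI at day 10 and 7.50% at day 14, against 2.07% and 2.66% of Cnmd-high cells (unthinned 43.9% and 40.2% against 15.8% and 19.99%).

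*Adamts12* stood highest in Rgs5-high cells, at 111 CPM (90.9 to 135) and 118 CPM (103 to 134), and next in Ifitm5-high cells, at 51.6 CPM (42.7 to 61.8) and 63.5 CPM (57.2 to 70.3). Aspn-high cells had 34.8 and 43.0 CPM, Col10a1-high cells 24.5 and 17.0 CPM, and Cnmd-high cells 15.9 and 14.0 CPM. The Cnmd-high value of day 14 stood near the reference of 14.7 CPM, while *Comp*, which encodes the matrix protein that ADAMTS12 cuts, was highest in Cnmd-high cells, at 10537 and 10516 CPM. At each day the order of the 5 groups was the same.

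Of the 10 members, all of which passed the limit of 20 UMIs, 2 stood at least 2-fold above the next group at both days, *Adamts1* and *Adamts2*, both in Rgs5-high cells. Over all 14517 genes that passed, 12.4% did so in any group, 5.19% in Rgs5-high, 2.47% in Aspn-high, 2.29% in Col10a1-high, 1.27% in Ifitm5-high, and 1.14% in Cnmd-high cells. With 10 members, 2 of 10 is close to this background. *Adamts4*, *Adamts6*, and *Adamts12* passed 2-fold at day 10 only, and *Adamts5*, *Adamts9*, and *Adamts15* at day 14 only. Among the pairs of groups, 83 of 99 comparisons of a member at day 10 and 86 of 100 at day 14 had an interval of the ratio that left out 1.

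Set against each other, the procollagen and aggrecan sums differed in their ratio of UMIs between the groups. At day 10, the procollagen sum was 115 CPM in Aspn-high, 31.9 in Cnmd-high, 11.9 in Col10a1-high, 101 in Ifitm5-high, and 504 in Rgs5-high cells. The aggrecan sum was 165, 60.8, 106, 135, and 390.3 CPM in the same order. At day 14, the procollagen sum was 115, 30.2, 12.6, 84.0, and 428 CPM, and the aggrecan sum 97.4, 34.8, 60.5, 112, and 289 CPM. The procollagen sum thus differed little between the days in Aspn-high, Cnmd-high, and Col10a1-high cells, while the aggrecan sum was lower at day 14 in all 5 groups.

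The log2 ratio of procollagen to aggrecan UMIs was highest in Rgs5-high cells, at 0.37 (0.17 to 0.57) at day 10 and 0.57 (0.41 to 0.72) at day 14. It was lowest in Col10a1-high cells, at -3.16 (-3.52 to -2.81) and -2.26 (-2.49 to -2.04). Ifitm5-high cells had -0.42 and -0.41 at the 2 days. Cells high for none of the markers had -0.73 (-0.80 to -0.66) and -0.61 (-0.67 to -0.54). Aspn-high cells had -0.51 (-0.60 to -0.43) at day 10 and 0.24 (0.18 to 0.31) at day 14, and Cnmd-high cells -0.93 (-1.01 to -0.84) and -0.21 (-0.32 to -0.09). Aspn-high cells exceeded Cnmd-high cells by 0.41 on the log2 scale at day 10 (0.30 to 0.53) and by 0.45 at day 14 (0.32 to 0.58). This difference depends on the genes summed. With *Adamts4* and *Adamts5* alone as the aggrecan sum it was -0.047 at day 10 and 0.18 at day 14, and with *Adamts2* alone as the procollagen sum it was 1.85 and 1.93. With a marker limit of 40% in place of 20% it was 0.17 at day 10.

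**Figure D2:**
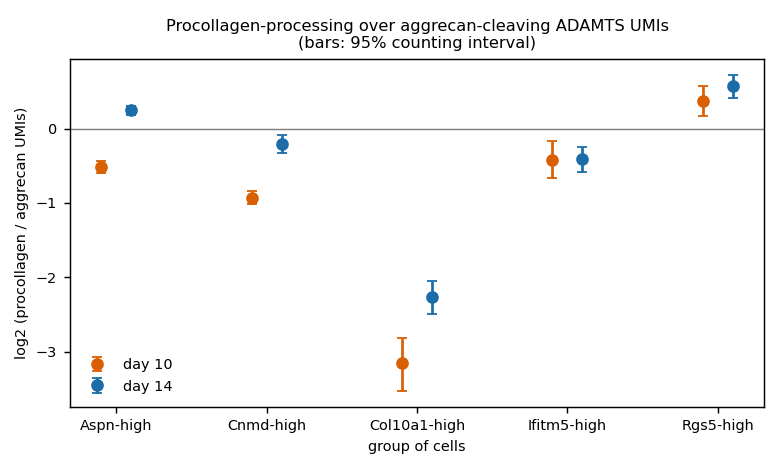
Log2 ratio of procollagen-processing (*Adamts2*, *Adamts3*, *Adamts14*) to aggrecan-cleaving (*Adamts1*, *Adamts4*, *Adamts5*, *Adamts9*, *Adamts15*) UMIs (vertical axis) in the 5 groups of cells (horizontal axis) at day 10 (orange) and day 14 (blue), with 95% counting intervals as bars. Col10a1-high cells lie lowest at -3.16 and -2.26, Rgs5-high cells highest at 0.37 and 0.57, and Aspn-high and Cnmd-high cells stand higher at day 14 than at day 10.

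The 2 sums were made of different genes in different groups. *Adamts2* gave 97.2% and 97.9% of the procollagen UMIs in Rgs5-high cells and 84.6% and 87.6% in Aspn-high cells, against 31.2% and 31.5% in Cnmd-high cells, where *Adamts3* gave the larger part. *Adamts1* gave 55.0% and 41.1% of the aggrecan UMIs in Aspn-high cells, 42.0% and 26.0% in Cnmd-high cells, and 19.7% and 13.1% in Ifitm5-high cells. Cells high for none of the markers held 2685 and 3143 procollagen UMIs, 76.3% and 77.3% of them from *Adamts2*. They also held 4449 and 4789 aggrecan UMIs, 45.3% and 29.6% of them from *Adamts1*. Their aggrecan UMIs outnumbered those of each of the 5 groups at both days, and their procollagen UMIs did so at day 10. With cells thinned to 2000 UMIs, 24.6% of Rgs5-high cells at day 10 and 22.0% at day 14 had UMIs of both kinds. Of Aspn-high cells, 5.61% and 3.79% did, and of Cnmd-high cells 0.362% and 0.752%.

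The sums were also set against the RNA of their substrates. Per 10000 UMIs of *Col1a1*, *Col1a2*, *Col2a1*, *Col3a1*, and *Col5a1* together, the procollagen members had 234 UMIs (213 to 257) in Rgs5-high cells at day 10 and 315 (294 to 338) at day 14. Aspn-high cells had 20.4 and 21.7, and Ifitm5-high cells, which had the highest fibrillar collagen level of the 5 groups, had 10.1 and 9.75. Cnmd-high cells had 4.79 and 5.35, and Col10a1-high cells 3.79 and 5.03. The group with the least fibrillar collagen RNA (21494 and 13594 CPM) thus had the most N-proteinase UMIs for each collagen UMI. The group with the most fibrillar collagen RNA, Ifitm5-high, had 100487 and 86131 CPM of it. Per 1000 UMIs of *Acan*, which encodes aggrecan, the aggrecan members had 13.3 and 8.87 UMIs in Cnmd-high cells and 27.4 and 18.5 in Col10a1-high cells. In Aspn-high cells they had 141 and 91.1, and in Ifitm5-high cells 245 and 262. *Acan* itself was far higher in the first 2 groups (4573 and 3874 CPM at day 10) than in the last 2 (1169 and 553 CPM), so these ratios follow the *Acan* level in part. In Rgs5-high cells *Acan* had 41 and 242 UMIs in all, and no ratio is given.

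Cartilage cells differed among themselves with their own *Col10a1* level. Cells high for *Cnmd*, *Col10a1*, or both were put into 4 bins, with *Col10a1* below 100 CPM, 100 to 1000 CPM, 1000 to 10000 CPM, and above 10000 CPM, which held 1911, 654, 206, and 448 cells at day 10 and 779, 765, 174, and 1002 at day 14. *Adamts3* stood at 13.4, 19.1, 29.5, and 10.98 CPM along the bins at day 10 and at 11.02, 15.3, 24.4, and 8.33 CPM at day 14. It was therefore highest in the third bin at both days, where its interval (24.7 to 35.0 at day 10, 19.6 to 30.0 at day 14) left out the values of the other bins. *Col2a1*, which encodes the type II procollagen it acts on, was also highest in that bin.

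*Adamts14* had its highest value in the third bin as well, at 9.76 CPM (7.07 to 13.2) and 8.78 CPM (6.003 to 12.4), though at day 14 the interval included the 7.19 CPM of the second bin. *Adamts2* ran the other way, with 10.5, 10.98, 2.95, and 2.04 CPM at day 10 and 10.7, 9.55, 4.66, and 3.603 CPM at day 14, so the last 2 bins were the lowest at both days. *Adamts6* was low in the first 2 bins (9.91 and 9.49 CPM at day 10, 11.8 and 12.2 CPM at day 14), stood at 17.3 and 16.2 CPM in the third, and at 41.0 CPM (36.6 to 45.7) and 34.5 CPM (31.8 to 37.4) in the last. *Adamts1* was highest in the last bin, at 58.0 CPM (52.8 to 63.6) and 32.5 CPM (29.9 to 35.3). In the first 3 bins it stood at 26.5, 24.2, and 21.6 CPM at day 10 and at 7.90, 8.91, and 15.4 CPM at day 14, so the days differed in direction there. *Adamts12* had its lowest value in the third bin at both days, 7.95 and 6.31 CPM.

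The log2 ratio of procollagen to aggrecan UMIs was -1.15, -0.56, -0.02, and -2.59 along the bins at day 10 and -0.39, -0.06, -0.10, and -2.07 at day 14. Its drop lay between the third and the last bin at both days, where *Adamts3* and *Adamts14* were lower and *Adamts1* was higher. *Cnmd* stood at 2653 and 760 CPM in these 2 bins at day 10 and at 2492 and 397 CPM at day 14. The marker that selected most cells thus changed at the same step. A higher *Col10a1* level and the change of selecting marker cannot be told apart there.

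**Figure D3:**
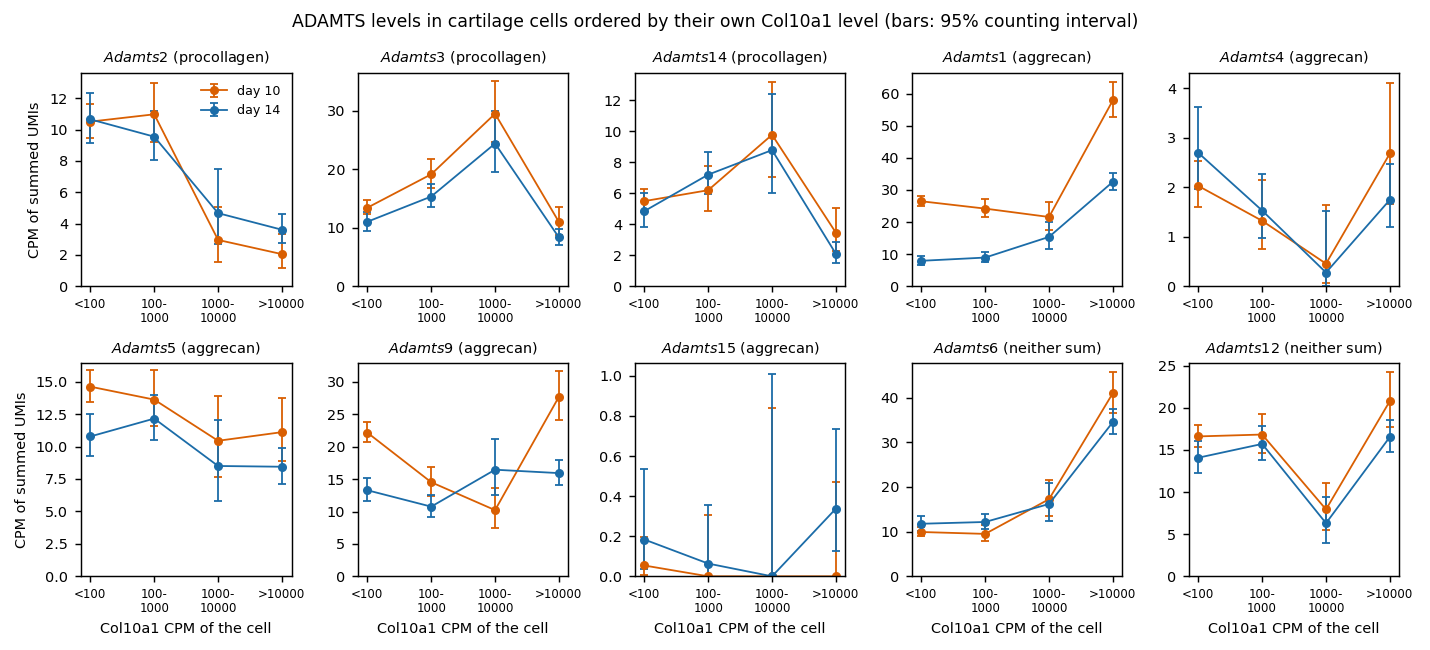
CPM of summed UMIs (vertical axis, linear from 0) of the 10 members in cells high for *Cnmd* or *Col10a1*, in 4 bins of the cell's own *Col10a1* level (horizontal axis, CPM) at day 10 (orange) and day 14 (blue), with 95% counting intervals as bars. *Adamts3* peaks in the third bin at 29.5 and 24.4 CPM, while *Adamts6* reaches 41.0 and 34.5 CPM and *Adamts1* 58.0 and 32.5 CPM in the last bin.

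Between day 10 and day 14, the most regular difference was that of *Adamts1*, which was lower at day 14 in all 5 groups. It was 2.26-fold lower in Aspn-high cells (2.11 to 2.43) and 2.82-fold lower in Cnmd-high cells (2.50 to 3.19), both past 2-fold, and 1.74-fold, 1.82-fold, and 1.83-fold lower in Col10a1-high, Ifitm5-high, and Rgs5-high cells. Immediate early genes, which dissociation of tissue can induce, were lower as well. The median log2 difference of *Fos*, *Fosb*, *Jun*, *Junb*, *Egr1*, *Ier2*, and *Atf3* was -0.55, -0.72, -0.32, -0.69, and -0.63 in the same 5 groups, against -0.02, -0.04, -0.12, -0.01, and 0.02 over all genes. The median summed level of these genes per cell was 2643, 6068, 6191, 3437, and 3698 CPM at day 10 in the same order of groups. At day 14 it was 2469, 3527, 4596, 2395, and 3347 CPM. A limit to cells at or below the median of these genes was set after seeing the data. The log2 differences of *Adamts1* were then -1.37 to -0.19. The part of these genes in the difference of *Adamts1* was not otherwise tested.

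In Aspn-high cells, 1 of 10 members passed 2-fold upward between the days (2.84% of all genes) and 1 of 10 downward (3.35% of all genes). These were *Adamts15*, at 0.703 and 1.82 CPM and thus 2.59-fold higher at day 14 (1.40 to 5.24), and *Adamts1*. In Cnmd-high cells *Adamts1* was the 1 of 9 members that passed downward (3.01% of all genes), and none passed upward (2.02%). In Col10a1-high cells *Adamts9* passed downward, 1 of 9 members (2.53% of all genes), at 2.10-fold lower (1.73 to 2.54), and none upward (2.89%). In Ifitm5-high cells *Adamts14* passed downward, 1 of 10 members (2.56% of all genes), with 28 and 34 UMIs and 2.09-fold lower (1.22 to 3.55), and none upward (2.65%). In Rgs5-high cells none of 8 members passed in either direction (4.12% of all genes upward, 2.47% downward).

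The median log2 difference over the members that passed the limit of 20 UMIs was -0.21 in Aspn-high, -0.15 in Cnmd-high, -0.52 in Col10a1-high, -0.30 in Ifitm5-high, and -0.07 in Rgs5-high cells. *Adamts2* was level in Aspn-high cells, with a log2 difference of 0.05 (-0.03 to 0.13). *Adamts5* was lower in Aspn-high cells, with a log2 difference of -0.57 (-0.73 to -0.42), and *Adamts12* was higher there, by 0.30 (0.17 to 0.44). In Aspn-high cells, the higher ratio of procollagen to aggrecan UMIs at day 14 thus came with a lower aggrecan sum and an equal procollagen sum.

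**Figure D4:**
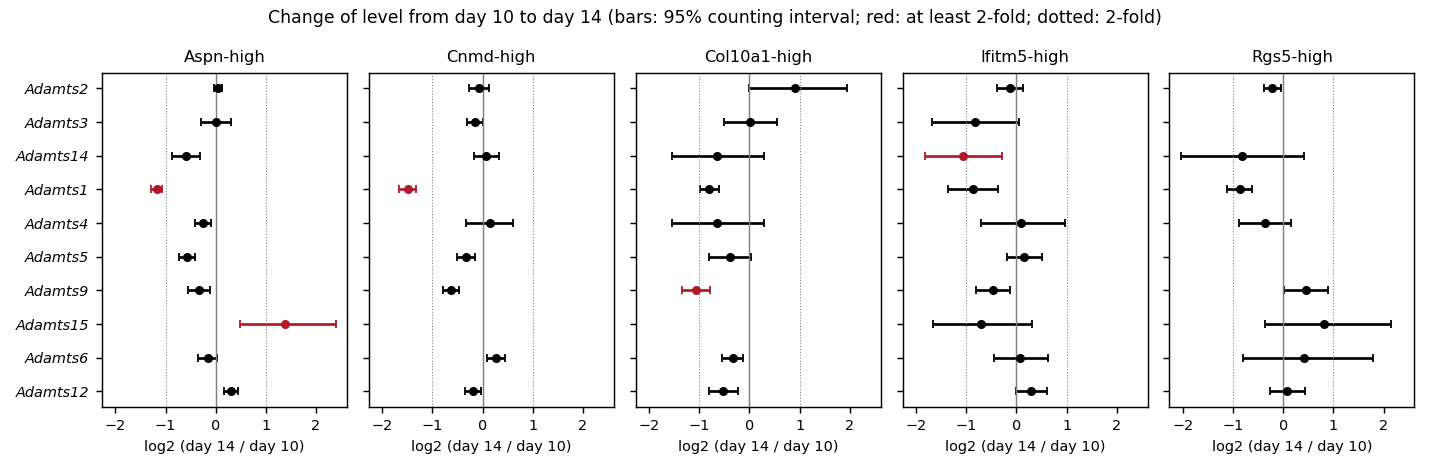
Log2 of the day 14 level over the day 10 level (horizontal axis) of each member with at least 20 UMIs over both days, in the 5 groups of cells (panels), with 95% counting intervals as bars, red where the level differed by at least 2-fold and dotted lines at 2-fold. *Adamts1* lies left of 0 in all 5 panels, at -1.18 and -1.49 in Aspn-high and Cnmd-high cells, and *Adamts9* lies left of 0 in 4 panels and at 0.45 in Rgs5-high cells.

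At day 7, where 58 Cnmd-high cells held 1203127 UMIs, 3 of 9 members differed from day 10 by at least 2-fold. *Adamts9* had 7 UMIs (5.82 CPM) and was 3.35-fold higher at day 10 (1.62 to 8.34), and *Adamts5* had 8 UMIs (6.65 CPM) and was 2.11-fold higher (1.06 to 4.90). *Adamts6* had 33 UMIs (27.4 CPM) and was 2.63-fold lower at day 10 (1.79 to 3.74). Over all genes, 5.11% passed upward and 8.34% downward. In Cnmd-high cells, neutrophil markers summed to 1894 CPM at day 7 and 49.2 CPM at day 10, and erythroid markers to 250 and 3.41 CPM. The part of this blood RNA in the differences was not tested. *Adamts1* stood at 39.9 CPM (29.4 to 52.9) at day 7, against 25.5 and 9.06 CPM at the later days. Its 48 UMIs lay in 14 of the 58 cells, with 15 in 1 cell, and the thinned shares were 5.26% at day 7 and 4.49% at day 10. Unlike between day 10 and day 14, the immediate early genes ran the other way here. Their median log2 difference was 0.66 from day 7 to day 10 (-0.10 over all genes), and 3 of 7 passed 2-fold upward. Their part in the difference of *Adamts1* was not tested.

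The 9 other *Adamts* genes in the table were also read. Of these, 5 passed the limit of 20 UMIs and 2 stood at least 2-fold above the next group at both days, where 12.4% of all genes did. *Adamts18* was a gene of Ifitm5-high cells, at 74.3 and 59.9 CPM, 8.03-fold and 6.07-fold above the next group. *Adamts16* was a gene of Aspn-high cells, at 7.50 and 9.40 CPM against 0.205 and 0.526 CPM in Cnmd-high cells. *Adamts10* showed no such pattern, at 14.6 to 28.2 CPM in the 5 groups at day 10 and day 14.

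Of 23 genes for substrates, partners, and activators, fixed as a list, 7 stood at least 2-fold above the next group at both days, where 12.4% of all genes did. *Col1a1* and *Col1a2* did so in Ifitm5-high cells, *Col3a1*, *Fbn2*, *Ltbp1*, and *Tll1* in Aspn-high cells, and *Pcsk6* in Col10a1-high cells. For *Tll1* the interval at day 10 included 1 (0.966 to 6.67). *Pcsk6*, which encodes the convertase PACE4, stood at 555 and 500 CPM in Col10a1-high cells and at 41.8 and 56.1 CPM in Cnmd-high cells, whereas *Furin*, the general convertase, stood at 32.6 to 52.8 CPM in all 5 groups. *Timp3*, which encodes the main inhibitor of the aggrecanases, was highest in Col10a1-high cells at 254 and 223 CPM and lowest in Ifitm5-high cells at 71.2 and 53.7 CPM, the group in which *Adamts5* was highest. *Lrp1*, which encodes a receptor that clears aggrecanases, was highest in Aspn-high cells at 343 and 361 CPM. *Fbln1*, which encodes a cofactor of ADAMTS1, was highest in Aspn-high cells at 59.4 and 38.4 CPM. The C-end side of procollagen had another order than *Adamts2*: *Bmp1* was highest in Ifitm5-high cells, at 321 and 366 CPM, and *Pcolce2* in Col10a1-high cells, at 583 and 605 CPM.

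In Rgs5-high cells, *Acan*, *Comp*, *Col2a1*, *Pcolce2*, and *Sdc4* were at least 2-fold higher at day 14 than at day 10, and *Vcan* and *Fbln1* at least 2-fold lower. The first 5 are genes that stood highest in a cartilage group. *Acan* stood there at 43.8 and 125 CPM, against 4573 and 3927 CPM in Cnmd-high cells. No member passed 2-fold between these days in Rgs5-high cells.

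The genes whose levels ran most like those of a member were found by Pearson's r of log2(CPM + 10) over the 11 points of group and day with at least 50 cells. The points share libraries, and many genes vary between these groups, so r is given as a description. *Adamts2* was most like *Ptprg* (0.99), *Evi5* (0.99), and *Nr2f6* (0.98), and *Adamts4* most like *Cfl1* (0.99), *Nexn* (0.99), and *Tpm4* (0.99), which encode actin regulators. *Adamts3* was most like *Pdk1* (0.98), *Lbp* (0.97), and *Fgfr3* (0.97), the last a growth factor receptor of chondrocytes. *Adamts12* was most like *Azi2* (0.97), *Tbx2* (0.97), and *Sept9* (0.97). For *Adamts1* (*Ppp2r1a*), *Adamts5* (*Elmo1*), *Adamts6* (*Cnot2*), and *Adamts9* (*Mindy2*) the top value was 0.97, 0.96, 0.94, and 0.97. Among the members, *Adamts2* and *Adamts4* (0.94) and *Adamts2* and *Adamts12* (0.93) ran most alike, and *Adamts3* and *Adamts12* (-0.86) least.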

How the data were processed

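Single-cell RNA-Seq was performed by the authors on sorted callus cells of day 7, day 10, and day 14, 1 library each. The authors aligned the reads to mm10 and collapsed UMIs with Cell Ranger (version 3.0 in the submitters' processing notes; the sources differ on the version and the kit chemistry). The deposited matrices hold raw UMI counts. Members, lists, and groups were chosen with earlier results of these data known.

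Counts were summed over the cells of a group and divided by their total (CPM). Levels have exact Poisson and ratios exact binomial 95% intervals, and shares after thinning to 2000 UMIs Clopper-Pearson intervals, all for counting error only. A difference was called at 2-fold with at least 20 UMIs. A level of 0 was set to 3 counts. No p-values were computed. Named genes are the members, the fixed lists, and the 3 genes most like each member with a level of at least 20 CPM. No doublet caller was run, and cells high for several markers were left out. Catalytic-site codons were found by translating the principal transcript of each gene. The procedures were tested on simulated data. Python 3.11.15, numpy 2.4.6, scipy 1.17.1, pandas 2.3.3, Biopython, and matplotlib 3.10.9 were used. Alternatives were other marker limits, cells high for several markers assigned to 1 group, no upper gene limit, a mitochondrial limit of 5%, the mean of the cells' own CPM, thinning, no count limit, and other gene sums.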

Additional observations from a re-analysis of the deposited data

Results flagged for a closer look

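Members whose level moved in opposite directions between day 10 and day 14 in different groups, with each interval leaving out 0, were singled out, and none of these differences between groups was tested. On the log2 scale *Adamts9* was at 0.45 (0.01 to 0.89) in Rgs5-high cells, against -0.33 in Aspn-high, -0.62 in Cnmd-high, -1.07 in Col10a1-high, and -0.47 in Ifitm5-high cells. *Adamts12* was at 0.30 in Aspn-high cells, against -0.19 in Cnmd-high and -0.52 in Col10a1-high cells. *Adamts6* was at 0.26 in Cnmd-high and -0.33 in Col10a1-high cells.

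Cells over the limit of 5000 genes, which entered the comparisons only in the alternative with no upper gene limit, also carried the members. Summed over the 10 members, those without *Ptprc* had 194 CPM at day 7 (279 cells), 226 CPM at day 10 (741 cells), and 178 CPM at day 14 (945 cells), against 263, 216, and 204 CPM in the cells within the limits.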

How the results depend on the processing

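The difference of the log2 procollagen to aggrecan ratio between Aspn-high and Cnmd-high cells was 0.41 at day 10 and 0.45 at day 14. With *Adamts4* and *Adamts5* alone as the aggrecan sum it reversed to -0.047 at day 10 and was 0.18 at day 14, as the sum then leaves out *Adamts1* and *Adamts9*. With *Adamts2* alone as the procollagen sum it was 1.85 and 1.93. At day 10 it was 0.17 with a marker limit of 40% and 0.62 with cells thinned to 2000 UMIs, and the cause was not tested. The other settings left it within its interval at both days.

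The number of members that stood 2-fold above the next group was 2 or 3 under every setting, *Adamts1* and *Adamts2* among them each time. The number of member and group pairs past 2-fold between the days was 5 of 46, between 4 and 7 under most settings, 8 with a mitochondrial limit of 5%, and 9 of 44 in cells at or below the median of the immediate early genes. The last setting was chosen after seeing the data; the log2 differences of *Adamts1* were then -1.37 to -0.19 over the 5 groups, against -1.49 to -0.80. *Adamts1* in Aspn-high and Cnmd-high cells was among them under every setting. Each member kept its highest group in 17 to 20 of 20 combinations of member and day under the alternatives that regroup or rescale cells, and the changes were in *Adamts14*, *Adamts15*, and, at day 10, *Adamts5*. The levels themselves moved more: of 100 levels, 49 left their counting interval with thinning, 37 in cells low for the immediate early genes, 27 at a marker limit of 40%, 23 with the mean of the cells' CPM, 12 at a limit of 10%, and 10 with no upper gene limit. No paired analysis was possible because each day has 1 library. Rgs5-high cells at day 10 held 935068 UMIs, the fewest of the groups at day 10 and day 14, which limits the precision of low members there.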
